A study of Mus musculus with 12 samples.

Results

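The miR-29 family of the mouse comprises miR-29a, miR-29b and miR-29c, whose 3p arms share a seed, the bases 2 to 8 that pair with target transcripts. Its members here were chosen by name, as the 5 mature miRNAs mmu-miR-29a-3p, mmu-miR-29b-3p, mmu-miR-29c-3p, mmu-miR-29a-5p and mmu-miR-29c-5p, after miRNA counts of the same 12 libraries had been seen. Their levels and tests across the groups are therefore a description and not independent evidence. They were 5 of the 7 mature miR-29 products listed, out of 1374 mature miRNAs and 3134 small RNAs in all. Transcripts of DNA methyltransferases, of collagens and of other extracellular matrix proteins are known targets of miR-29. In the brain the family is known to become more abundant as neurons mature, and astrocytes express it as well.

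Small RNAs of 18 to 30 nt were sequenced from the prefrontal cortex of adult male C57BL/6 mice after cocaine conditioned place preference (CPP), a test of the preference for a compartment that was paired with the drug. The question was how cocaine and L-methionine, the amino acid from which the cell makes its methyl donor, bear on small RNAs of this tissue. Each library held RNA pooled from a pair of animals, and the cortex was dissected 2 h after CPP testing. SS mice received saline in place of both agents, and CS mice received saline and were conditioned with cocaine. L-methionine was injected at 1 g/kg, 2 times per day for 10 days, into MS mice, which were conditioned with saline, and into MC mice, which were conditioned with cocaine. Each of the 4 groups had 3 libraries, named here by group and replicate number. In units of 1000000 counts (M), the SS libraries held 8.23 to 11.1 M, the CS libraries 8.18 to 8.71 M, the MS libraries 10.01 to 10.97 M and the MC libraries 7.77 to 10.9 M. Levels are given as CPM, the count over the library total times 1000000, and 3 counts, the limit that a count of 0 would allow, corresponded to 0.271 to 0.386 CPM. The intervals on counts cover counting error only, since PCR reads without molecular identifiers are not independent molecules. The p-values measure the spread between these pooled libraries.

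The libraries differed in ways the 4 groups do not explain. MC replicate 16 stood apart, with 56.0% of its counts on mature miRNAs and 16.1% on exons, against 59.3% to 67.9% and 7.40% to 10.9% in the other 11 libraries. Its factor from the trimmed mean of M values (TMM) was 0.675, against 0.826 to 1.26 in the others. Many results that rest on it are given with and without this library. By their profiles over 203 miRNA precursor families the libraries were also clustered into 3 sets, a number given to the clustering. CS replicates 8 and 9 together with SS replicate 12 made up set A, and MC replicates 16 and 17 together with CS replicate 10 made up set C. The other 6 libraries formed set B. The median Pearson correlation of the centred profiles was 0.70 for the 21 pairs within a set and -0.64 for the 45 pairs between sets. The sets were built from these profiles, so this difference describes them and does not test them. All 3 MS libraries were in set B with SS replicates 13 and 14, so MS and SS could be compared within 1 set. No set held both MS and CS libraries, so a difference between those groups cannot be told apart from one between sets. No file repeated another: over 433 miRNAs and all 66 pairs of libraries, the smallest chi-square per degree of freedom was 187.5.

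The sequences show what the members share and where a read cannot be assigned with certainty. They are taken from RefSeq on GRCm38.p6, the build that the submitters' notes call mm10, with all 5 members matched and bases 2 to 8 in capitals. The 3p members carried 1 seed that no other mature miRNA of the RefSeq table had:
mmu-miR-29a-3p: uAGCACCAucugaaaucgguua
mmu-miR-29c-3p: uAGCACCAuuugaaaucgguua
mmu-miR-29b-3p: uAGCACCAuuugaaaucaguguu
Counted from the 5′ end, miR-29a-3p and miR-29c-3p differed by the single substitution C10U, outside the seed. The split of reads between them is therefore uncertain wherever a mismatch was tolerated. From miR-29c-3p to miR-29b-3p the substitutions were G18A, U21G and A22U, and miR-29b-3p was 23 nt long against 22 nt for the others. The 5p members, from the opposite arms of the hairpins, had unlike seeds that no other mature miRNA shared:
mmu-miR-29a-5p: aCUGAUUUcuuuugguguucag
mmu-miR-29c-5p: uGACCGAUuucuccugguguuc
In the GRCm38 annotation the hairpins lie in 2 clusters. Mir29a (chr6:31062660-31062747) and Mir29b-1 (chr6:31063023-31063093) were on the minus strand with 275 bases between them. Mir29a overlapped no other annotated gene, and the edge of Mir29b-1 overlapped an exon of the lincRNA Gm27019 on the same strand. Mir29b-2 (chr1:195037040-195037120) and Mir29c (chr1:195037547-195037634) were on the plus strand with 426 bases between them. Both lay within an exon of the noncoding transcript A330023F24Rik and opposite to an exon of Cd46, which encodes a complement regulator. Mature miR-29b-3p comes from both clusters, and its count does not separate them.

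The guide strands of the 3p arms made up most of the mature miR-29 counts, with miR-29a-3p the most abundant member in 12 of 12 libraries. Among the 1374 mature miRNAs miR-29a-3p ranked between 23 and 54 by level, with a median rank of 36. The next were miR-29c-3p at ranks 55 to 103 and miR-29b-3p at ranks 97 to 180. The level of miR-29a-3p was 3.61 to 5.05 times that of miR-29c-3p, and that of miR-29c-3p was 1.71 to 5.68 times that of miR-29b-3p. The neighbours miR-29b-3p and miR-29c-5p changed places, with miR-29b-3p the higher in 9 of 12 libraries and a ratio of 0.744 to 1.96. The least abundant member was miR-29a-5p, at ranks 308 to 396 and 4.12 to 19.0 CPM. The passenger strand miR-29c-5p was thus much closer to its 3p partner than miR-29a-5p was to its own.

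The level of miR-29a-3p, the leading member, was 2157, 1632 and 2244 CPM in SS replicates 12, 13 and 14. In CS replicates 8, 9 and 10 it was 3477, 2864 and 3669 CPM. In MS replicates 3, 4 and 23 it was 4692, 7983 and 5338 CPM. All CS libraries were above all SS libraries, and all MS libraries were above all CS libraries. In MC replicates 16, 17 and 20 miR-29a-3p was at 1532, 5877 and 5476 CPM. The lowest of the 12 libraries in CPM was thus an MC library, MC replicate 16, while the other MC libraries lay within the range of MS. As a percentage of mature miRNA counts SS replicate 13 was lower, at 0.240% against 0.273% in MC replicate 16. The counts behind these levels ran from 11900 in MC replicate 16 to 79913 in MS replicate 4, so counting error was small beside the spread between libraries. In bulk tissue, fewer cells of a type and less RNA per cell cannot be told apart.

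The group means of miR-29a-3p were 2011 ± 331 CPM in SS, 3336 ± 421 in CS and 6004 ± 1743 in MS (SD, n = 3). The MC mean was 4295 ± 2401 CPM with all 3 libraries and 5677 ± 284 without MC replicate 16. As ratios to the SS mean these were 1.66 in CS, 2.99 in MS and 2.14 in MC, or 2.82 in MC without that library. Within set B, SS replicates 13 and 14 stood at 1632 and 2244 CPM and the 3 MS libraries and MC replicate 20 at 4692 to 7983 CPM. Within set A, SS replicate 12 at 2157 CPM was below both CS libraries, at 2864 and 3477 CPM. Set C held no SS library, and there CS replicate 10 at 3669 CPM lay between MC replicates 16 and 17. The order of SS below CS and of SS below MS thus held within the sets that had both. The order of CS below MS could not be compared within any set.

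**Figure D1:**
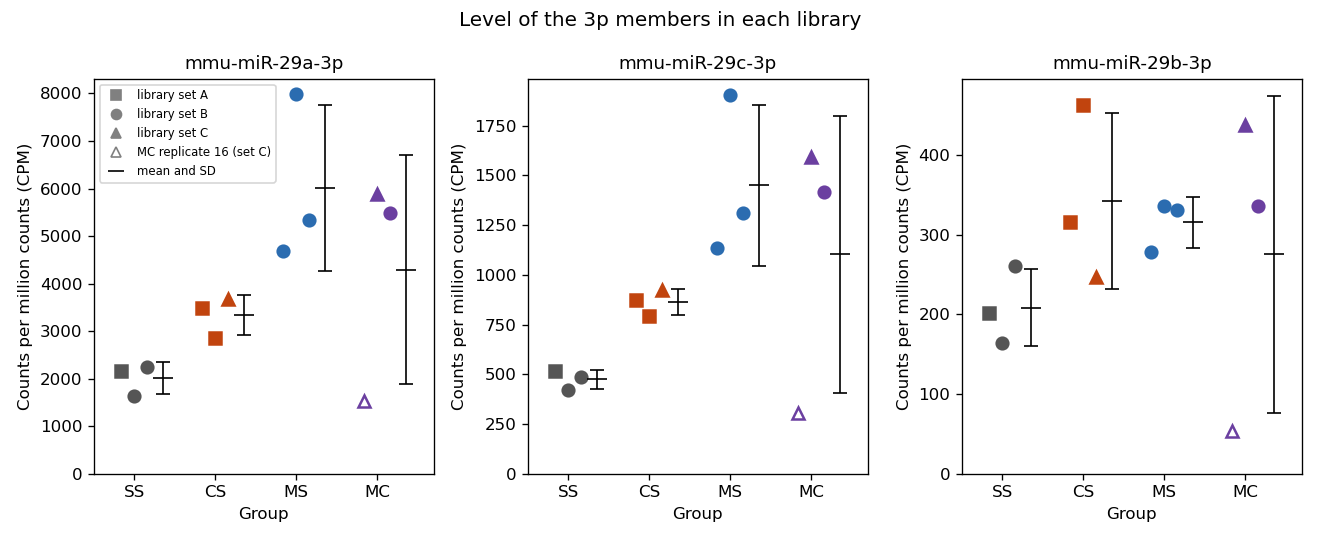
Level of miR-29a-3p, miR-29c-3p and miR-29b-3p in CPM (linear axis from 0) in the 3 libraries of each group, with the marker shape giving the library set (square A, circle B, triangle C), the open triangle marking MC replicate 16 and the black bar the mean ± SD. The MS libraries of miR-29a-3p, at 4692 to 7983 CPM, and of miR-29c-3p, at 1134 to 1905 CPM, lie above every SS and CS library, while MC replicate 16 is the lowest library for all 3 members.

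The near-identical miR-29c-3p followed the same order. It was at 515, 422 and 486 CPM in SS replicates 12, 13 and 14, at 872, 793 and 925 CPM in CS replicates 8, 9 and 10, and at 1134, 1905 and 1312 CPM in MS replicates 3, 4 and 23. The MC libraries stood at 303, 1592 and 1415 CPM for replicates 16, 17 and 20. Again SS, CS and MS did not overlap, and MC replicate 16 was below every other library. The means were 474 ± 47.4 CPM for SS, 863 ± 66.5 for CS, 1451 ± 404 for MS and 1103 ± 698 for MC, or 1503 ± 125 without MC replicate 16. Across the 12 libraries log2 levels of miR-29a-3p and miR-29c-3p had a Pearson correlation of 0.99, and they share sequence, library and depth.

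For miR-29b-3p the groups differed less. Its levels in SS replicates 12, 13 and 14 were 202, 164 and 261 CPM, and in CS replicates 8, 9 and 10 they were 316, 463.5 and 247 CPM. In MS replicates 3, 4 and 23 they were 279, 336 and 331 CPM, and in MC replicates 16, 17 and 20 they were 53.4, 438 and 336 CPM. The MS libraries were above the SS libraries, by little at the edge, while CS overlapped both SS and MS. The mean was 1.64 times that of SS in CS, 1.51 times in MS and 1.32 times in MC, or 1.85 times in MC without replicate 16. Its correlation with miR-29a-3p over the 12 libraries was 0.70, and 0.65 without MC replicate 16.

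The passenger strand miR-29c-5p varied little between SS, CS and MS. Its level was 204, 220.2 and 240.3 CPM in SS replicates 12, 13 and 14 and 332, 247 and 211 CPM in CS replicates 8, 9 and 10. In MS replicates 3, 4 and 23 it was 239.7, 264 and 237 CPM, and in MC replicates 16, 17 and 20 it was 45.6, 223 and 317 CPM. All 4 groups overlapped. The much rarer miR-29a-5p averaged 8.03 ± 2.97 CPM for SS, 14.4 ± 4.07 for CS, 12.2 ± 0.493 for MS and 10.0 ± 5.44 for MC (12.9 ± 2.69 without MC replicate 16), from 32 to 162 counts a library. Of the 5p products outside the 5 members, miR-29b-1-5p was at 12.1 to 28.7 CPM in 11 libraries and at 72.9 CPM in MC replicate 16, above miR-29a-5p in 11 of 12 libraries. Its mean was lower in MS than in SS, at 14.1 against 15.8 CPM. In CS it was 25.0 CPM and in MC 36.5 CPM, or 18.4 CPM without MC replicate 16. The other, miR-29b-2-5p, was at 0.674 to 2.57 CPM.

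The share of the 5p arm in the 5p plus 3p counts of miR-29c sets both strands of 1 hairpin against each other within a library and does not depend on the scaling between libraries. It was 28.4%, 34.3% and 33.1% in SS replicates 12, 13 and 14 and 27.6%, 23.7% and 18.6% in CS replicates 8, 9 and 10. It was 17.4%, 12.2% and 15.3% in MS replicates 3, 4 and 23 and 13.1%, 12.3% and 18.3% in MC replicates 16, 17 and 20. Every SS library was above every library of the other 3 groups, and MS and MC overlapped. The widest 95% Wilson interval of the 12 libraries, that of MC replicate 16, ran from 11.8% to 14.4%. The means were 31.9% ± 3.10 for SS, 23.3% ± 4.51 for CS, 15.0% ± 2.64 for MS and 14.6% ± 3.29 for MC (SD, n = 3), or 15.3% ± 4.28 for MC without replicate 16. The order held within the sets: 28.4% in SS against 27.6% and 23.7% in CS in set A, 34.3% and 33.1% in SS against 12.2% to 18.3% in MS and MC in set B, and 18.6% in CS against 13.1% and 12.3% in MC in set C. In set A the Wilson intervals of SS replicate 12 (27.3% to 29.6%) and CS replicate 8 (26.7% to 28.5%) overlapped.

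An exact permutation test of the F statistic over all 369600 groupings of the 12 libraries gave p = 0.00117 for the 5p arm share of miR-29c (F = 16.9), or 0.00584 after Benjamini-Hochberg adjustment over the 5 shares tested. The smallest p this test can give is 6.49e-05, whereas 3 libraries against 3 cannot go below 0.1, so pairs of groups were not tested. The adjusted exact p was 0.0214 without MC replicate 16. The share takes in the count of miR-29c-3p and is thus not independent of the levels for which the family was known. Set beside all 78 hairpins with both arms at a mean of at least 10 CPM, a comparison added after the values were seen, miR-29c had the largest F. Its exact p adjusted over these hairpins was 0.0760, or 0.167 without MC replicate 16, and with all 12 libraries it missed the threshold of 0.05, as did all 78, and 7 of 78 hairpins (8.97%) had an unadjusted exact p under 0.05. In the same comparison without MC replicate 16, miR-29c ranked 2 by exact p, and 1 other hairpin, miR-409, named here after its values were seen, passed the threshold with an adjusted exact p of 0.0355. The MS mean differed from the SS mean by 16.9 percentage points for miR-29c, which ranked 7 of 78 by the size of this difference (median 1.26 points, largest 27.4 points for miR-384, also named after its values were seen). In 8 of 78 hairpins, miR-29c included, the share of the minor arm was lower in every MS library than in every SS library.

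The 5p arm of miR-29a held less than 1 percent of the counts of its hairpin. Its share was 0.403% ± 0.143 for SS, 0.428% ± 0.103 for CS, 0.212% ± 0.0545 for MS and 0.242% ± 0.0472 for MC, or 0.229% ± 0.0586 without MC replicate 16. The exact permutation test over the 12 libraries gave an adjusted p of 0.121, and 0.0263 without SS replicate 14, the library with the lowest share in SS.

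**Figure D2:**
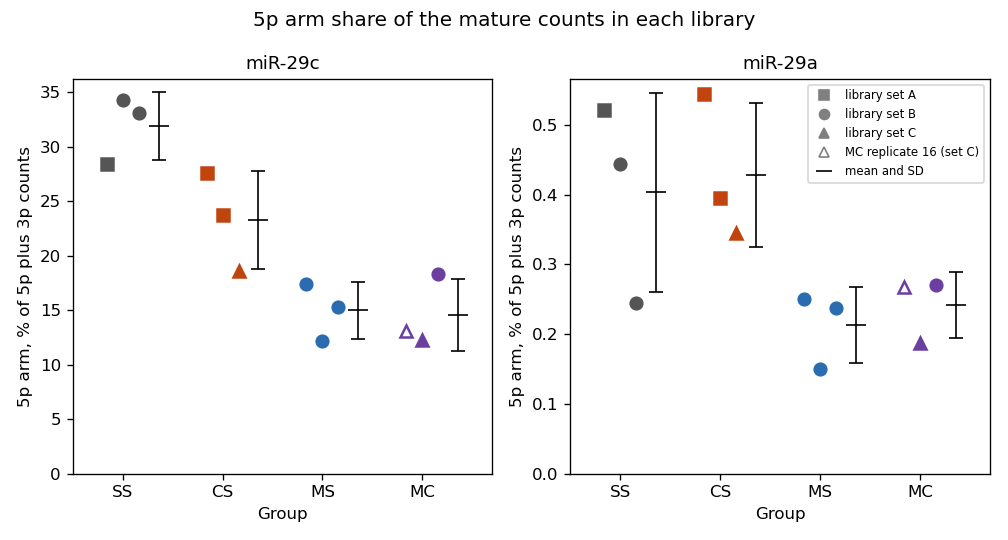
Share of the 5p arm in the 5p plus 3p counts of miR-29c and of miR-29a, in percent on linear axes, for the 3 libraries of each group, with markers by library set, the open triangle for MC replicate 16 and the black bar for mean ± SD. For miR-29c the SS libraries lie at 28.4% to 34.3% and the MS libraries at 12.2% to 17.4%, while for miR-29a all libraries lie below 1%.

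Within the 3p counts of the family the mix was more even. The share of miR-29a-3p averaged 74.6% for SS, 73.3% for CS, 77.1% for MS and 77.1% for MC, with an adjusted exact permutation p of 0.292. The MC mean was raised by replicate 16 at 81.1% and was 75.1% without it. For miR-29c-3p the means lay between 17.7% and 19.0%, with MC at 19.9% when replicate 16 was left out, and the adjusted exact permutation p was 0.702. The share of miR-29b-3p was 7.71% ± 0.891 for SS, 7.71% ± 3.18 for CS, 4.20% ± 0.795 for MS and 4.34% ± 1.38 for MC, or 5.09% ± 0.628 without MC replicate 16. All SS libraries, at 7.02% to 8.71%, were above all MS and MC libraries, at 2.83% to 5.53%, while the CS libraries spread from 5.10% to 11.3%. The adjusted exact permutation p was 0.121 with 12 libraries, 0.0424 without CS replicate 9 and 0.0414 without CS replicate 10.

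In MS against SS, the comparison of L-methionine with saline in mice not given cocaine, the fitted log2 fold changes of miR-29a-3p and miR-29c-3p were the highest of the family. That of miR-29a-3p was 1.32 (SE 0.301, 95% interval 0.66 to 1.98), with an adjusted p of 0.315 by the quasi-likelihood test of edgeR, Benjamini-Hochberg adjusted over 780 miRNAs. That of miR-29c-3p was 1.35 (SE 0.358, 95% interval 0.57 to 2.14), with the same adjusted p of 0.315 by that edgeR test. Both missed the threshold of 0.05. By unadjusted p they ranked 2 and 4 among the 780 miRNAs tested. For miR-29b-3p the log2 fold change was 0.37 (SE 0.455) and for miR-29a-5p 0.35 (SE 0.349). Leaving out 1 library at a time, the log2 fold change of miR-29a-5p ran from 0.08 (without SS replicate 14) to 0.67 (without SS replicate 12). For miR-29c-5p it was -0.09 (SE 0.384) and turned to 0.16 without TMM factors, so its direction depended on the scaling. All 5 members had enough counts to be tested.

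With edgeR, 0 of the 5 members and 0 of 780 miRNAs (0%) were called in MS against SS. At an unadjusted p under 0.05 these were 2 members, miR-29a-3p and miR-29c-3p, and 75 of 780 miRNAs (9.62%). DESeq2 called the same 2 members among 13 miRNAs (1.67%), with adjusted p of 0.00990 and 0.0326. Without MC replicate 16, a library outside the comparison that shares the fit, its filter and its scaling, edgeR called 7 of 773 miRNAs (0.906%), and 2 members and 138 miRNAs (17.9%) had an unadjusted p under 0.05. Among the 7 were miR-29a-3p at a log2 fold change of 1.40 (SE 0.196) and miR-29c-3p at 1.43 (SE 0.193), both with an adjusted p of 0.00859 in the edgeR quasi-likelihood test. With the 6 libraries of the comparison alone, edgeR called 3 of 714 miRNAs (0.420%), 2 of them these members. Over all alternatives the adjusted p of either ranged from 0.00859 to 0.661, the highest without SS replicate 13, while the log2 fold change stayed between 1.17 and 1.58 for miR-29a-3p. In CPM, 4 of the 5 members, all but miR-29c-5p, had every MS library above every SS library, as had 146 of 780 miRNAs (18.7%). For miR-29a-5p the edge was narrow, with MS replicate 3 at 11.76 CPM (129 counts) and SS replicate 12 at 11.30 CPM (93 counts). As a percentage of mature miRNA counts these were 0.001785% and 0.001782%.

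In CS against SS, cocaine against saline, the log2 fold changes were 0.49 (SE 0.297) for miR-29a-3p, 0.62 (SE 0.353) for miR-29c-3p, 0.47 for miR-29b-3p and 0.55 for miR-29a-5p. Leaving out 1 library at a time, they fell as low as 0.27 for miR-29a-3p (without CS replicate 10), 0.43 for miR-29c-3p (without CS replicate 10), 0.13 for miR-29b-3p (without CS replicate 9) and 0.26 for miR-29a-5p (without SS replicate 14). For miR-29c-5p the value was -0.03, and positive in 6 of 23 alternatives: without TMM factors (0.25), with TMM factors from all small RNAs, with library set as a covariate (0.39), with a minimum of 10 counts, without MC replicate 16 and with the 6 libraries of the comparison alone. With edgeR, 0 of 5 members and 0 of 780 miRNAs (0%) were called, and 0 members and 22 miRNAs (2.82%) had an unadjusted p under 0.05. DESeq2 called 0 of the 5 members. Without MC replicate 16 edgeR still called 0 of 773, while 2 members, miR-29a-3p and miR-29c-3p, and 50 miRNAs (6.47%) had an unadjusted p under 0.05. Every CS library was above every SS library in CPM for 3 members, miR-29a-3p, miR-29c-3p and miR-29a-5p, and for 96 of 780 miRNAs (12.3%). For miR-29a-5p the closest libraries were CS replicate 9 at 11.37 CPM (99 counts) and SS replicate 12 at 11.30 CPM (93 counts). As a percentage of mature miRNA counts their order reversed, at 0.00173% and 0.00178%. Without TMM factors the median log2 fold change of all miRNAs shifted by 0.27 in CS against SS and by 0.25 in MS against SS, so that plain CPM gave higher ratios in both than the fitted values.

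In MC against CS, which adds L-methionine to cocaine, miR-29a-3p had a log2 fold change of 0.34 (SE 0.296) and miR-29c-3p one of 0.31 (SE 0.352). Without MC replicate 16 these were 0.65 and 0.68, with an adjusted p of 0.606 for both in the edgeR quasi-likelihood test, and without MC replicate 17 they were 0.14 and 0.02. The 5p members had values of the opposite sign, -0.48 (SE 0.349) for miR-29a-5p and -0.46 (SE 0.385) for miR-29c-5p. They were -0.23 and -0.04 without MC replicate 16, and -0.75 and -0.90 without MC replicate 20. With all libraries edgeR called 0 of 5 members and 0 of 780 miRNAs (0%), and 0 members and 58 miRNAs (7.44%) had an unadjusted p under 0.05. DESeq2 called 0 of the 5 members. Leaving out MC replicate 16, the unadjusted count was 2 members and 50 of 773 miRNAs (6.47%). In MC against MS, which adds cocaine to L-methionine, the values were -0.48 (SE 0.297) for miR-29a-3p and -0.42 (SE 0.352) for miR-29c-3p. Without MC replicate 16 they were -0.21 and -0.07, and without MC replicate 17 they were -0.69 and -0.70. For miR-29a-5p and miR-29c-5p they were -0.28 and -0.40, or -0.06 and -0.02 without MC replicate 16. Without MC replicate 20 they were -0.55 and -0.84. With library set as a covariate the value of miR-29c-5p turned to 0.06. In this comparison edgeR called 0 of 5 members and 0 of 780 miRNAs (0%), and 0 members and 65 miRNAs (8.33%) had an unadjusted p under 0.05. DESeq2 called 0 of the 5 members. Here the unadjusted count without MC replicate 16 was 0 members and 34 of 773 miRNAs (4.40%). The sign for miR-29b-3p was negative in both comparisons, at -0.38 and -0.27, and positive in both without MC replicate 16, at 0.07 and 0.15. Without MC replicate 17 its values were -0.81 and -0.70.

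The interaction asks if the difference between cocaine and saline was the same with and without L-methionine. For miR-29a-3p it was -0.98 on the log2 scale (SE 0.420), with an adjusted p of 0.804 by the quasi-likelihood test of edgeR, Benjamini-Hochberg adjusted. For miR-29c-3p it was -1.05 (SE 0.499), and without MC replicate 16 both were -0.75. Here edgeR called 0 of 5 members and 0 of 780 miRNAs (0%), and 1 member, miR-29a-3p, and 34 miRNAs (4.36%) had an unadjusted p under 0.05. DESeq2 called 0 of the 5 members. The unadjusted count without MC replicate 16 was 2 members and 42 of 773 miRNAs (5.43%). The effect of L-methionine averaged over mice with and without cocaine was a log2 fold change of 0.83 for both miR-29a-3p (SE 0.211) and miR-29c-3p (SE 0.250), with adjusted p of 0.193 and 0.249 in the edgeR quasi-likelihood test. The other members were at -0.004 (SE 0.321) for miR-29b-3p, -0.06 (SE 0.246) for miR-29a-5p and -0.27 (SE 0.272) for miR-29c-5p. The sign turned in 11 of 21 alternatives for miR-29b-3p and in 4 of 22 for miR-29a-5p, the fit without TMM factors among them for both. Without MC replicate 16 these values were 0.26 for miR-29b-3p, 0.10 for miR-29a-5p and -0.02 for miR-29c-5p. For the averaged effect edgeR called 0 of 5 members and 0 of 780 miRNAs (0%), and 2 members and 103 miRNAs (13.2%) had an unadjusted p under 0.05. DESeq2 called 16 miRNAs (2.05%), 1 member among them, miR-29a-3p, with an adjusted p of 0.0204. Without MC replicate 16 edgeR called 19 of 773 miRNAs (2.46%), all higher with L-methionine, 2 members among them. These were miR-29a-3p at 1.02 (SE 0.144) and miR-29c-3p at 1.05 (SE 0.141), both with an adjusted p of 0.00704 in the edgeR quasi-likelihood test. Over all alternatives that adjusted p ran from 0.00704 to 0.746. For cocaine averaged over both backgrounds, the log2 fold changes lay between -0.22 for miR-29c-5p and 0.13 for miR-29a-5p, and without MC replicate 16 between 0.0003 for miR-29c-5p and 0.34 for miR-29b-3p. The sign for miR-29a-3p, at 0.005 with all libraries, turned in 7 of 21 alternatives. That of miR-29b-3p and that of miR-29c-3p each turned in 2 of 21, and that of each 5p member in 2 of 22. There edgeR called 0 of 5 members and 0 of 780 miRNAs (0%), and 0 members and 25 miRNAs (3.21%) had an unadjusted p under 0.05. DESeq2 called 0 of the 5 members.

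Beside the mature members, the files listed counts on the mir-29 precursor family, which were not assigned to an arm or a member. The inserts of 18 to 30 nt were too short to hold a whole hairpin, of 71 to 88 nt here, so these are not counts of intact precursors. They exceeded the mature counts, making up 77.4% ± 3.09 of all miR-29 counts over the 12 libraries (range 72.1% to 83.8%), the highest share among 80 precursor families, whose median was 1.84%. The share was 80.8%, 83.8% and 79.4% in SS replicates 12, 13 and 14, above every other library, where it was 72.1% to 78.2%. Its bearing on the ratios between groups of the mature counts was not tested. The level of the precursor family was 13062, 12747 and 12553 CPM in SS replicates 12, 13 and 14 and 17629, 15832 and 16906 CPM in CS replicates 8, 9 and 10. It was 22631, 32094 and 23626 CPM in MS replicates 3, 4 and 23 and 5199, 23057 and 24597 CPM in MC replicates 16, 17 and 20. In CPM the order of the groups was that of miR-29a-3p, with SS, CS and MS apart and MC replicate 16 below all. The mean was 1.31 times that of SS in CS and 2.04 times in MS. Tested with the miRNAs, the precursor counts had a log2 fold change of 0.82 in MS against SS (SE 0.359), with an adjusted p of 0.586 in the edgeR quasi-likelihood test over 905 features. Precursor and mature counts summed gave 0.93 (SE 0.317), with an adjusted p of 0.370 in the same edgeR test over 898 features. In CS against SS the fitted values were smaller, at 0.17 (SE 0.357) for the precursor counts and 0.28 (SE 0.315) for the sum. Their adjusted p were 0.991 and 0.990 in the same edgeR tests. How the mature counts would stand if these reads were assigned to members was not tested.

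The miRNAs whose log2 levels were most like those of miR-29a-3p and miR-29c-3p over the 12 libraries were, outside the family, the same 3 of 171 compared. They were miR-30b-5p (Pearson correlation 0.95 and 0.97), miR-153-3p (0.95 and 0.96) and miR-126a-5p (0.95 and 0.96). For miR-29b-3p they were miR-15a-5p (0.98), miR-338-3p (0.95) and miR-136-5p (0.94). Without MC replicate 16 these correlations were 0.92, 0.82 and 0.89. In the marker lists below, miR-338-3p is an oligodendrocyte marker and miR-126a-5p a vascular marker. The least like miR-29a-3p were miR-323-5p and miR-139-3p, at -0.61 and -0.58, or -0.46 and -0.42 without MC replicate 16. The least like miR-29c-3p were miR-323-5p and let-7c-5p, at -0.67 and -0.63, or -0.45 and -0.38 without that library. For miR-29b-3p they were miR-485-5p at -0.89 and miR-323-5p at -0.88, which became -0.45 and -0.50 without MC replicate 16. The points of these correlations share libraries, sets and scaling.

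The tissue label was set against markers of cell types. The neuronal list (miR-124-3p, miR-128-3p, miR-137-3p and miR-138-5p) was listed in every library, with miR-124-3p the most abundant at a mean of 103198 CPM. It summed to 207193, 218308 and 116943 CPM in SS replicates 12, 13 and 14 and to 81772.5, 193013 and 193037 CPM in CS replicates 8, 9 and 10. In MS replicates 3, 4 and 23 it summed to 211691, 80502 and 212054 CPM, and in MC replicates 16, 17 and 20 to 87611, 80611 and 85699 CPM. The low sums of all MC libraries, CS replicate 8 and MS replicate 4, the library with the highest miR-29a-3p, were carried mainly by miR-124-3p, at 30002 to 46349 CPM there and 70274 to 176336 CPM in the others. The other markers differed from it: miR-138-5p was highest in MC replicate 20, miR-137-3p was highest in CS replicate 8 and lowest in MC replicate 16 (364 CPM, against 1200 to 2292 CPM in the others), and miR-128-3p was lowest in MC replicate 16. Counts on the mir-124 precursor family were not part of these sums and made up 20.7% to 63.6% of all miR-124 counts. The median log2 fold change of the 4 mature neuronal markers in MS against SS was -0.30, against -0.03 over all miRNAs. Both arms of miR-9, made in neural cells, summed to 16970 to 66176 CPM, the lowest in MC replicate 16, with miR-9-5p the most abundant. In MS against SS the arms went opposite ways, at -0.64 for miR-9-5p and 0.54 for miR-9-3p (median -0.05). The 3 oligodendrocyte markers summed to 392 to 1733 CPM, led by miR-219a-5p at a mean of 475 CPM. Their median log2 fold change in MS against SS was 0.16, from -1.37 (SE 1.33) for miR-219a-2-3p to 0.27 for miR-219a-5p. The level of miR-219a-2-3p was 27.1 to 64.8 CPM in SS replicate 14, MS replicates 4 and 23 and MC replicate 20. In the other libraries it was 547 to 856 CPM. Astrocytes had no marker miRNA here. None of the markers of these or the other cell types was at 0 in any library. With all 12 libraries edgeR called 0 markers in any comparison. In MS against SS 1 marker of the neural list and 0 of the neuronal and oligodendrocyte lists had an unadjusted p under 0.05. Over all miRNAs this was 75 of 780 (9.62%). Without MC replicate 16 edgeR called miR-9-5p lower in MS than in SS, and DESeq2 called no marker of these 3 lists.

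The summed levels of markers of other cell types differed between libraries as well. The 7 markers of blood and leukocytes, led by miR-451a at a mean of 2426 CPM, summed to 2732 to 3953 CPM in SS, 2786 to 4012 in CS, 4116 to 5970 in MS and 1604, 5901 and 5148 in MC replicates 16, 17 and 20. Their median log2 fold change in MS against SS was 0.71, against -0.03 over all miRNAs. The members ran from -1.31 (SE 0.960) for miR-486a-5p to 1.71 (SE 0.579) for miR-144-3p. The most abundant, miR-451a and miR-150-5p, were at 0.46 and 0.14. The 4 markers of endothelium and vascular wall, led by miR-126a-3p at a mean of 6938 CPM, summed to 9742 to 10977 CPM in SS, 10297 to 12462 in CS, 10848 to 14317 in MS and 3787, 11896 and 12039 in MC replicates 16, 17 and 20. Their median log2 fold change in MS against SS was 0.37, from 0.81 (SE 0.295) for miR-126a-5p and 0.66 for miR-145a-5p to 0.09 for the most abundant, miR-126a-3p, and -0.03 for miR-143-3p. The 5 markers of choroid plexus and other epithelium, led by miR-429-3p at a mean of 125 CPM, summed to 109 to 123 CPM in SS, 134 to 987 CPM in CS, 108 to 785 CPM in MS and 58.8 to 406 CPM in MC. Their median log2 fold change was 1.63 in MS against SS and 1.88 in CS against SS, above that of miR-29a-3p in both. Single libraries weighed on these sums, with 987 CPM in CS replicate 10 against 134 and 224 CPM in the other CS libraries, and 785 CPM in MS replicate 3 against 288 CPM in MS replicate 23 and 108 CPM in MS replicate 4, the last below every SS library. The 4 liver and muscle markers were led by miR-122-5p and summed to 43.3 to 85.8 CPM in SS, 38.1 to 57.4 in CS, 53.4 to 183 in MC and 108 to 2529 in MS, the highest in MS replicate 3, with a median log2 fold change of 0.39 in MS against SS. By unadjusted edgeR p under 0.05 in MS against SS, 1 of 7 blood, 2 of 4 vascular, 2 of 5 epithelial and 1 of 4 liver and muscle markers passed. Over all miRNAs 75 of 780 (9.62%) passed. DESeq2 called 1 of these markers, miR-122-5p, higher in MS than in SS, and the same marker higher for the averaged L-methionine effect. With MC replicate 16 left out, edgeR called miR-142a-3p, miR-142a-5p, miR-144-3p and miR-126a-5p higher for the averaged L-methionine effect. The part of these cell types, neurons included, in the levels of miR-29 was not tested.

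Lists of other miRNAs with roles like those of miR-29 had medians close to or below that of all miRNAs in MS against SS. Of the 8 other miRNAs known to target transcripts of DNA methyltransferases, all 8 were tested. In any comparison 0 were called in either direction by edgeR or DESeq2. In MS against SS 0 of the 8 had an unadjusted edgeR p under 0.05, against 75 of 780 miRNAs (9.62%). Their median log2 fold change in MS against SS was 0.04, against -0.03 over all 780 miRNAs, and the averaged L-methionine effect had a median of 0.01. The most abundant was miR-143-3p, also a vascular marker above, at a mean of 3505 CPM, and the list summed to 4753 to 5550 CPM in SS and 5232 to 6968 CPM in MS. The 6 other miRNAs known to rise with neuron maturation were all tested, and 0 were called by edgeR or DESeq2. The 4 neuronal markers above are among these 6, so the lists are not separate. Their median log2 fold change was -0.33 in MS against SS and -0.42 for the averaged L-methionine effect. For the latter 1 of the 6 had an unadjusted edgeR p under 0.05, against 103 of 780 miRNAs (13.2%).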

How the data were processed

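Small RNA libraries (18 to 30 nt inserts, reads of 50 bases) were filtered, mapped with AASRA and counted per small RNA by the authors, whose processing notes name Bowtie and mm10. How reads on near-identical members were split is not given in the sources used here. The deposited files give raw counts and TPM per small RNA, the TPM computed by the authors as the count over the library total times 1000000. The counts summed to the stated total in 12 of 12 libraries, and the deposited TPM equalled count over total within 0.005. CPM were recomputed from counts. Mature and predicted miRNAs (1422 listed) were kept if 3 or more libraries had 5 or more counts, and fitted in edgeR 4.0.16 (R 4.3.3) over all 12 libraries with 1 coefficient per group, TMM factors and 7 contrasts. Called means an adjusted p of at most 0.05. DESeq2 1.42.0 was the other tool. The script was tested on simulated data. Shares were tested in Python 3.11.15 (numpy 2.4.6, pandas 2.3.3, scipy 1.17.1) by an exact, two-sided permutation F test, and figures were drawn with matplotlib 3.10.9. Library sets came from average-linkage clustering of centred log2 precursor family profiles, cut into 3 clusters. Named are the 5 members, the other products of their hairpins, the marker and role lists, and for each 3p member the 3 most and 2 least correlated miRNAs with a mean of at least 100 CPM (log2 of CPM plus 0.5). The hairpin comparison and the precursor tests were added after the values were seen. The members and lists were chosen with earlier results of these data known. Alternatives were another tool, scaling, filters, a limit on the log2 fold change, a library-set covariate, summed members, the libraries of a comparison alone and each library left out in turn. Loci overlap other annotated genes, and whether counting used strand is not given in the sources used here.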

Additional observations from a re-analysis of the deposited data

How the results depend on the processing

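Of 158 counts of called members under an alternative, 153 stayed at 0 and 5 did not. They include an alternative that kept the main fit and added a limit of 1 on the log2 fold change. Its counts were fixed at 0, since the main fit called 0 members. In MS against SS, 2 members were called by DESeq2, 2 with the 6 libraries of the comparison alone, and 0 to 2 with 1 library left out in turn, the 2 without MC replicate 16. For the averaged L-methionine effect, DESeq2 called 1 member, and leaving out a library gave 0 to 2, again 2 without MC replicate 16. In the other 5 comparisons every alternative gave 0. Of 769 member log2 fold changes, those under the added limit included, 760 stayed on their side of the threshold and 9 passed it. The 3p members summed to 1 feature had a log2 fold change of 1.28 in MS against SS (SE 0.308), with an adjusted p of 0.330 in the edgeR quasi-likelihood test. With library set as a covariate that of miR-29a-3p was 1.25. Levels relative to SS all rose when set against mature miRNA counts in place of all counts. In 15 of 15 the shift was smaller than the SD of the group over the SS mean. That limit is wide in MC, at 1.19 for miR-29a-3p, whose ratio there went from 2.14 to 2.35. Leaving out 1 library in turn, the adjusted exact permutation p ranged from 0.00714 to 0.0328 for the 5p arm share of miR-29c, from 0.0263 to 0.209 for that of miR-29a, and, for shares of the 3p counts, from 0.135 to 0.501 for miR-29a-3p, 0.0414 to 0.209 for miR-29b-3p and 0.125 to 0.978 for miR-29c-3p. On the log2 odds scale no share changed sides. Adjusted over 78 hairpins, an alternative added after seeing the data, the exact permutation p of the miR-29c arm share was 0.0760, since more features were tested. Testing the precursor families with the miRNAs, also added after seeing the data, called 0 members. No paired analysis was possible because no replicate number occurs in more than 1 group. Leaving out 1 library in turn, the edgeR count of miRNAs with an unadjusted p under 0.05 ranged from 11 to 50 in CS against SS, 49 to 138 in MS against SS, 28 to 114 in MC against CS, 20 to 126 in MC against MS, 17 to 86 for the interaction, 68 to 150 for the averaged L-methionine effect and 17 to 70 for that of cocaine. Members among them were 2 throughout in MS against SS and for the averaged L-methionine effect, 0 to 2 in CS against SS, MC against CS and the interaction, 0 to 1 in MC against MS and 0 for the averaged cocaine effect. How far depth limited the calls was not tested.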
